A study of Mus musculus with 10 samples.

Results

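The genes described here write, erase and read DNA methylation, and they were measured in the ventral hippocampus (vHpc) of ovariectomized (OVX) female mice. The 9 genes were taken by name, and earlier results of these data were known when they were chosen. They are the methyltransferases Dnmt1, Dnmt3a and Dnmt3b, the maintenance factor Uhrf1, the dioxygenases Tet1, Tet2 and Tet3, and the methyl-CpG binding proteins Mbd1 and Mbd2. All 9 were found among the 24421 genes of the expression table, and all 9 were among the 15081 genes that entered the tests, those whose mean over the libraries reached 0.5 CPM (reads on a gene, scaled to the same total in every library). The mice were C57BL/6 females, either wild type (OVX WT) or heterozygous for the BDNF Met allele (OVX Het-Met), a knock-in of the common human variant in the prodomain of brain-derived neurotrophic factor. After ovariectomy, performed at 70 to 80 days of age by the study's methods, and 2 weeks of recovery, they drank either 300 nM β-estradiol (E2, 0.7 µg per day) in 0.1% ethanol or 0.1% ethanol alone (vehicle) for 6 weeks. There were 2 libraries of OVX WT vehicle (replicates 1 and 3), 2 of OVX WT E2 (replicates 1 and 2), 3 of OVX Het-Met vehicle and 3 of OVX Het-Met E2, 10 in all, each from RNA pooled from 2 animals. The extraction protocol in the labels states 3 replicates per group. The remaining OVX WT replicate of each treatment was not in the expression table used here. RNA was measured, and DNA methylation itself was not. No group kept its ovaries, so hormone loss was common to all 4 groups, and 2 or 3 pools per group limit each comparison.

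In mammals, methyl groups on cytosines of CG pairs are set by Dnmt3a and Dnmt3b and copied to the new strand after DNA replication by Dnmt1, which Uhrf1 brings to hemimethylated sites. The TET enzymes oxidize 5-methylcytosine to 5-hydroxymethylcytosine and further forms that base excision repair can replace with unmodified cytosine. Mbd1 and Mbd2 bind methylated CG pairs and are linked to repression. Adult neurons do not divide, yet they are known to keep Dnmt1 and Dnmt3a, and brain is rich in 5-hydroxymethylcytosine.

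Tet1, Tet2 and Dnmt3a had an unadjusted p under 0.05 in a comparison of the main test below (limma), and none of them passed after adjustment. For these genes, the 300 bases from 250 before to 50 after a RefSeq transcript start (assembly GRCm38.p6) are shown. Their CG pairs, the sites that DNA methylation uses, are in capitals. The Tet1 window lay at chr10:62887275-62887574 on the minus strand, the Tet2 window at chr3:133544341-133544640 on the minus strand and the Dnmt3a window, the first of 3 listed for that gene, at chr12:3806730-3807029 on the plus strand.
Tet1: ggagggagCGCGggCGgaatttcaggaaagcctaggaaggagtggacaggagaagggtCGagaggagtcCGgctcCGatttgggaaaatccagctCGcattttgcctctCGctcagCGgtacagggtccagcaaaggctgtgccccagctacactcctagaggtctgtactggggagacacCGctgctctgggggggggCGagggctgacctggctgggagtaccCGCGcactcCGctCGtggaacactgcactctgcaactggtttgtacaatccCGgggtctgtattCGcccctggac
Tet2: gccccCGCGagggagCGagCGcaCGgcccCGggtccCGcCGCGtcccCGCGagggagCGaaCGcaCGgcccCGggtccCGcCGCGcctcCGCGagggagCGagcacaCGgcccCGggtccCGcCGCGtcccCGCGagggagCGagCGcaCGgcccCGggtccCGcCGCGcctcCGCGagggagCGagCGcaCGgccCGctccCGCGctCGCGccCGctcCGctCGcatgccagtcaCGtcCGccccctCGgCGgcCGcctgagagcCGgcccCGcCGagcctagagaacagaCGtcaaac
Dnmt3a: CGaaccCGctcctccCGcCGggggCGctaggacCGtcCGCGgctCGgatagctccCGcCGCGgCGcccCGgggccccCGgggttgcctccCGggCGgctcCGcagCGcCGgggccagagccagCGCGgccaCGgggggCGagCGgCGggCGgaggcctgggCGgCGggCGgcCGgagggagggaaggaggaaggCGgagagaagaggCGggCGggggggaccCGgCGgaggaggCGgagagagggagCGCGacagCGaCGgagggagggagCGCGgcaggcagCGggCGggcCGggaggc
The Tet1 window held 17 CG pairs, the Tet2 window 57 and the Dnmt3a window 46, against a median of 7 over the 32851 promoter windows of the RefSeq table. The printed windows of Tet1, Tet2 and Dnmt3a each lie inside the annotated span of the gene, downstream of its most distal start. Of the 12 windows listed for 7 of the genes (those of Mbd1 and Mbd2 were not used here), 11 held more CG pairs than that median, and the exception was 1 of the 3 Dnmt1 windows, with 2. Estrogen receptors bind a palindrome of the arms GGTCA and TGACC with 3 bases between them. This full motif, read on either strand, was in 0 of the 12 windows and in 0.07% of all windows. A single arm, GGTCA or TGACC, was in 6 of the 12 windows, those of 5 genes, and in 40.5% of all windows. These matches describe letters only and say nothing of receptor binding.

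Per kilobase of exons, the reader Mbd2 and the maintenance enzyme Dnmt1 stood at the top, and Dnmt3b and Uhrf1 at the bottom. Averaged over the 10 libraries, Mbd2 was at 12.8 ± 0.526 CPM per kb (SD), Dnmt1 at 8.55 ± 0.524, Dnmt3a at 5.82 ± 0.518 and Mbd1 at 4.87 ± 0.390. Tet3 was at 4.06 ± 0.348 CPM per kb, Tet2 at 3.67 ± 0.450 and Tet1 at 0.986 ± 0.140. Dnmt3b was at 0.248 ± 0.0419 CPM per kb and Uhrf1 at 0.184 ± 0.0486. The ranges over the libraries overlapped for Dnmt3a and Mbd1, for Mbd1 and Tet3, for Tet3 and Tet2 and for Dnmt3b and Uhrf1. Within libraries Dnmt3a was above Mbd1 in 10 of 10, and each of the other 3 pairs kept its order in 9 of 10. With the longest transcript in place of the exon union as the length, Tet2 (6.74 CPM per kb) came before Tet3 (6.22), and the other ranks stayed the same. The plot of levels per length shows the gap between Tet2 and Tet1 and between Tet1 and the last pair.

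**Figure D1:**
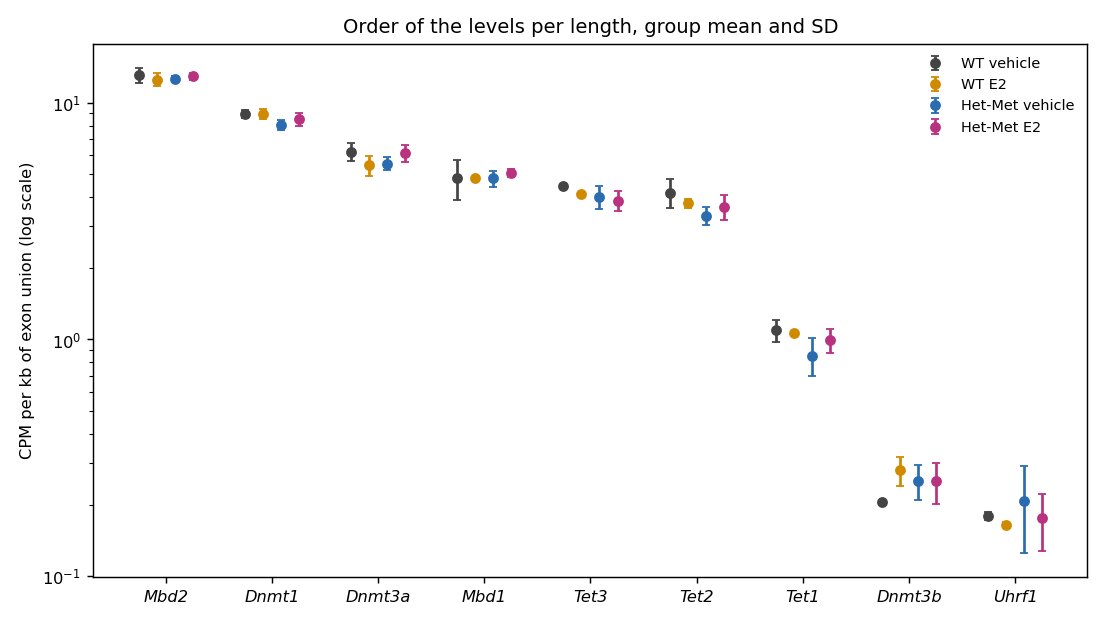
Mean level of each gene in CPM per kb of exon union (log scale, vertical) for the 4 groups; points are group means over 2 or 3 libraries and bars are the SD. The 4 groups of a gene lie close together beside the distance from Mbd2 (12.8 CPM per kb) to Uhrf1 (0.184 CPM per kb).

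The libraries held 19820184 to 23267410 reads on genes. The summed level of 8 neuronal markers was 12519 to 13488 CPM, and these do not tell brain regions apart. The sum of 10 hippocampal markers was 1112 to 1335 CPM and that of 6 thalamic markers 153 to 223 CPM. None of the genes of the 12 marker lists used was at 0 in every library. The summed level of 10 choroid plexus markers, in contrast, was 351 and 1598 CPM in OVX WT vehicle, 2699 to 3615 in OVX WT E2, 2100 to 4062 in OVX Het-Met vehicle and 519 to 2244 in OVX Het-Met E2. The sum of 7 meningeal markers was 285 to 310 CPM in OVX WT vehicle and 411 to 424 in OVX WT E2. It was 357 to 419 in OVX Het-Met vehicle and 295 to 357 in OVX Het-Met E2. The sum of 8 immediate-early genes was 227 to 507 CPM over the libraries. In bulk tissue, a change in the share of a cell type and a change in the RNA of each cell cannot be told apart.

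A gene was called where limma gave a Benjamini-Hochberg adjusted p under 0.05 over all 15081 genes and a fold change above 1.3. By this rule none of the 9 genes was called in any of 7 comparisons. Few genes of any kind were: 0.0133% of all genes for E2 in OVX WT, 0% for E2 in OVX Het-Met, 0.00663% for genotype under vehicle, 0.0265% for genotype under E2, 0.0729% for the interaction, 0.0265% for genotype over both treatments and 0.00663% for E2 over both genotypes. At an unadjusted p under 0.05, 2 of the 9 genes (Tet1 and Tet2) passed for genotype under vehicle, where 10.7% of all genes did, and 1 (Dnmt3a) passed for the interaction, where 5.42% did. None passed for E2 in OVX WT (4.04% of all genes), E2 in OVX Het-Met (5.45%), genotype under E2 (11.7%) or E2 over both genotypes (3.22%). For genotype over both treatments Tet1 and Tet2 passed again, beside 16.6% of all genes, and these libraries are those of the separate genotype comparisons. These unadjusted values rank the genes and are not calls.

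**Figure D2:**
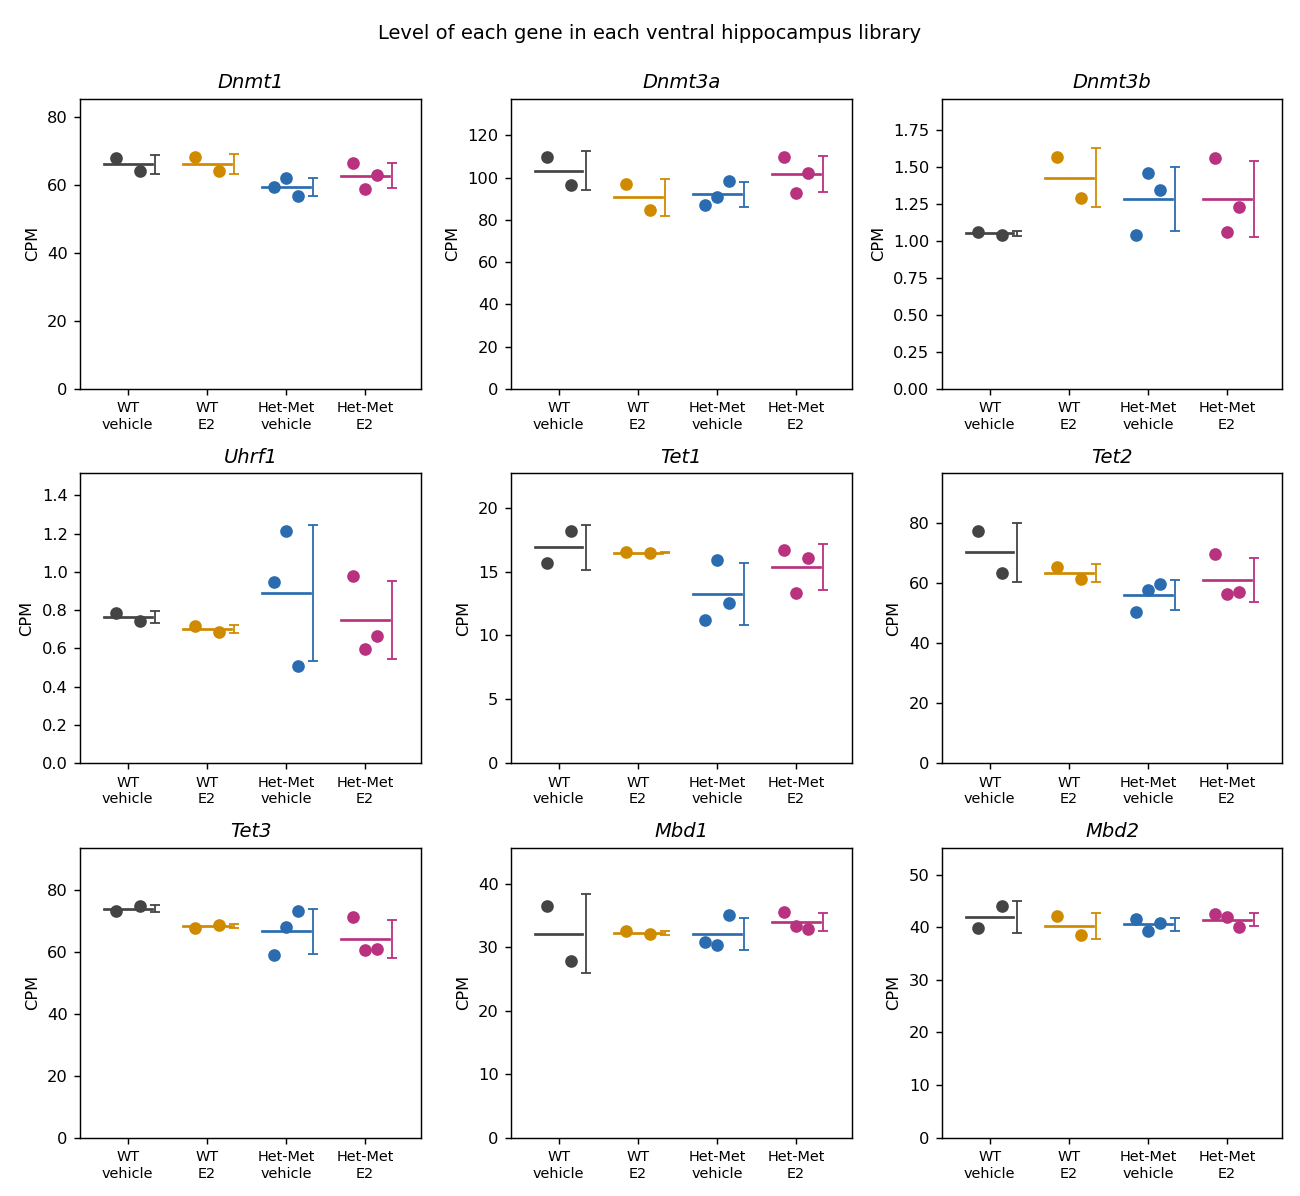
Level of the 9 genes in CPM (vertical, from 0) in every library of the 4 groups (horizontal); points are libraries, lines are group means and bars are the SD over 2 or 3 libraries. The 3 OVX Het-Met vehicle libraries have the lowest group mean for Tet1, Tet2 and Dnmt1, and for each of these genes they overlap libraries of another group.

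Dnmt1, the maintenance methyltransferase (chromosome 9, 20907209 to 20959888, minus strand, GRCm38), was one of the steadiest of the genes, with a highest library 1.20 times its lowest. Its level was 68.0 and 64.1 CPM in OVX WT vehicle, 68.2 and 64.0 in OVX WT E2, 59.4, 62.1 and 56.8 in OVX Het-Met vehicle, and 66.4, 58.9 and 62.8 in OVX Het-Met E2. All 3 OVX Het-Met vehicle libraries lay below both OVX WT vehicle libraries, whereas under E2 the genotypes overlapped. Under vehicle the genotype difference was -0.15 on the log2 scale (SE 0.0776, limma, adjusted p = 0.495). Under E2 it was -0.08 (SE 0.0776, limma, adjusted p = 0.726). With E2, the log2 fold change was 0.00 in OVX WT and 0.08 in OVX Het-Met, with 95% intervals of -0.18 to 0.18 and -0.07 to 0.22.

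Dnmt3a, the main de novo methyltransferase of the adult brain (chromosome 12, 3806007 to 3914443, plus strand), had E2 effects of opposite sign in the genotypes, and this difference had the smallest unadjusted p among the 9 genes. The levels were 109.7 and 96.6 CPM in OVX WT vehicle, 96.9 and 84.4 in OVX WT E2, 86.9, 90.9 and 98.5 in OVX Het-Met vehicle, and 109.8, 92.8 and 102.3 in OVX Het-Met E2. E2-treated libraries were on average lower than vehicle libraries in OVX WT (90.6 ± 8.81 against 103.2 ± 9.24 CPM, SD, n = 2 each) and higher in OVX Het-Met (101.6 ± 8.48 against 92.1 ± 5.91 CPM, n = 3 each), but in both genotypes the libraries of the treatments overlapped. The log2 fold change of E2 was -0.19 in OVX WT (95% interval -0.40 to 0.03) and 0.14 in OVX Het-Met (-0.03 to 0.31). The interaction, which is the difference between these E2 effects, was 0.33 on the log2 scale (SE 0.129, limma, unadjusted p = 0.0236, adjusted p = 0.777). With single libraries left out, that interaction ran from 0.23 to 0.43. It was 0.24 without OVX WT vehicle replicate 1 and 0.23 without OVX WT E2 replicate 2. With the choroid plexus sum as a covariate it was 0.30, where the unadjusted p was 0.176 by limma. The choroid plexus sums above were higher with E2 in OVX WT and mostly lower with E2 in OVX Het-Met. That covariate thus moves with the interaction itself, and over these 10 libraries the fit cannot tell them apart. The part of choroid plexus in the Dnmt3a values was not tested in any other way. The genotype difference of Dnmt3a was -0.16 under vehicle and 0.16 under E2 on the log2 scale, with limma adjusted p = 0.529 and 0.494. With single libraries left out it ran from -0.25 (without OVX WT vehicle replicate 3) to -0.07 (without OVX WT vehicle replicate 1) under vehicle, and from 0.07 (without OVX WT E2 replicate 2) to 0.26 (without OVX WT E2 replicate 1) under E2.

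Dnmt3b, the de novo methyltransferase best known from embryonic development, was near the limit of what these libraries can measure, at 21 to 35 reads per library. The gene lies on chromosome 2 (153649450 to 153687730, plus strand), 43.9 Mb from Bdnf, the gene that carries the Met allele. The levels were 1.06 and 1.04 CPM in OVX WT vehicle, 1.57 and 1.29 in OVX WT E2, 1.04, 1.46 and 1.34 in OVX Het-Met vehicle, and 1.57, 1.06 and 1.23 in OVX Het-Met E2. Both OVX WT E2 libraries were above both OVX WT vehicle libraries, and the OVX Het-Met libraries covered the same range with and without E2. E2 in OVX WT gave a log2 fold change of 0.31, with a 95% interval of -0.17 to 0.79 (limma, adjusted p = 1.00). At this depth, differences of this size could not be told from the spread between libraries.

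Uhrf1, which reads hemimethylated CG pairs at replication forks (chromosome 17, 56303321 to 56323486, plus strand), had 11 to 24 reads per library, the fewest of the 9. The levels were 0.787 and 0.743 CPM in OVX WT vehicle, 0.718 and 0.688 in OVX WT E2, 0.949, 1.21 and 0.510 in OVX Het-Met vehicle, and 0.979, 0.599 and 0.664 in OVX Het-Met E2. Each OVX Het-Met group alone held libraries above and below all OVX WT libraries. The summed level of 12 markers of cycling cells and immature neurons was 107 to 131 CPM over the 10 libraries. The 95% interval of the Uhrf1 genotype difference under vehicle ran from -0.42 to 0.63 on the log2 scale, so changes of this size were not detectable at this depth.

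Mean levels of all 3 TET genes were lower in the OVX Het-Met groups under both treatments, with wider gaps under vehicle, and none of these differences passed the adjusted test. Tet1 (chromosome 10, 62804570 to 62908996, minus strand) was at 15.6 and 18.1 CPM in OVX WT vehicle, 16.5 and 16.5 in OVX WT E2, 11.2, 15.9 and 12.6 in OVX Het-Met vehicle, and 16.7, 13.3 and 16.0 in OVX Het-Met E2. OVX Het-Met vehicle replicate 2 fell between the OVX WT vehicle libraries, and the other two lay below all OVX WT libraries. The log2 fold change of genotype under vehicle was -0.35 (SE 0.143, 95% interval -0.66 to -0.05, limma, unadjusted p = 0.0264, adjusted p = 0.428). Under E2 it was -0.11 (95% interval -0.41 to 0.20). E2 gave -0.03 in OVX WT and 0.22 in OVX Het-Met, and the interaction was 0.25 (SE 0.202, limma, adjusted p = 1.00). It was 0.14 without OVX WT vehicle replicate 3 or OVX Het-Met vehicle replicate 1, and 0.38 without OVX Het-Met vehicle replicate 2.

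Tet2 (chromosome 3, 133463679 to 133545139, minus strand) was at 77.4 and 63.3 CPM in OVX WT vehicle, 65.5 and 61.4 in OVX WT E2, 50.4, 58.0 and 59.7 in OVX Het-Met vehicle, and 69.7, 56.6 and 57.1 in OVX Het-Met E2. The OVX Het-Met vehicle libraries all lay below every OVX WT library, vehicle or E2, while the OVX Het-Met E2 libraries overlapped them. The log2 fold change of genotype under vehicle was -0.32 (SE 0.109, 95% interval -0.56 to -0.09, limma, unadjusted p = 0.0102, adjusted p = 0.362). Under E2 it was -0.06 (95% interval -0.29 to 0.17). E2 gave -0.14 in OVX WT and 0.12 in OVX Het-Met, and the interaction was 0.26 (SE 0.155, limma, adjusted p = 1.00). The Tet2 interaction was 0.12 without OVX WT vehicle replicate 1, 0.16 without OVX Het-Met E2 replicate 1 and 0.41 without OVX WT vehicle replicate 3 (unadjusted p = 0.0251 by limma). Whether the genotype difference of Tet1 or Tet2 is larger under vehicle than under E2 is what the interaction tests, and neither passed.

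Tet3, the TET gene with the highest level per kb of exon union here (chromosome 6, 83362373 to 83459084, minus strand), was at 73.2 and 75.0 CPM in OVX WT vehicle, 68.0 and 68.9 in OVX WT E2, 59.0, 68.1 and 73.3 in OVX Het-Met vehicle, and 71.5, 60.6 and 60.9 in OVX Het-Met E2. Both OVX WT E2 libraries were below both OVX WT vehicle libraries, and the genotypes overlapped under each treatment. Genotype gave a log2 fold change of -0.15 under vehicle (SE 0.0954) and -0.09 under E2 (SE 0.0954), with limma adjusted p = 0.572 and 0.730.

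**Figure D3:**
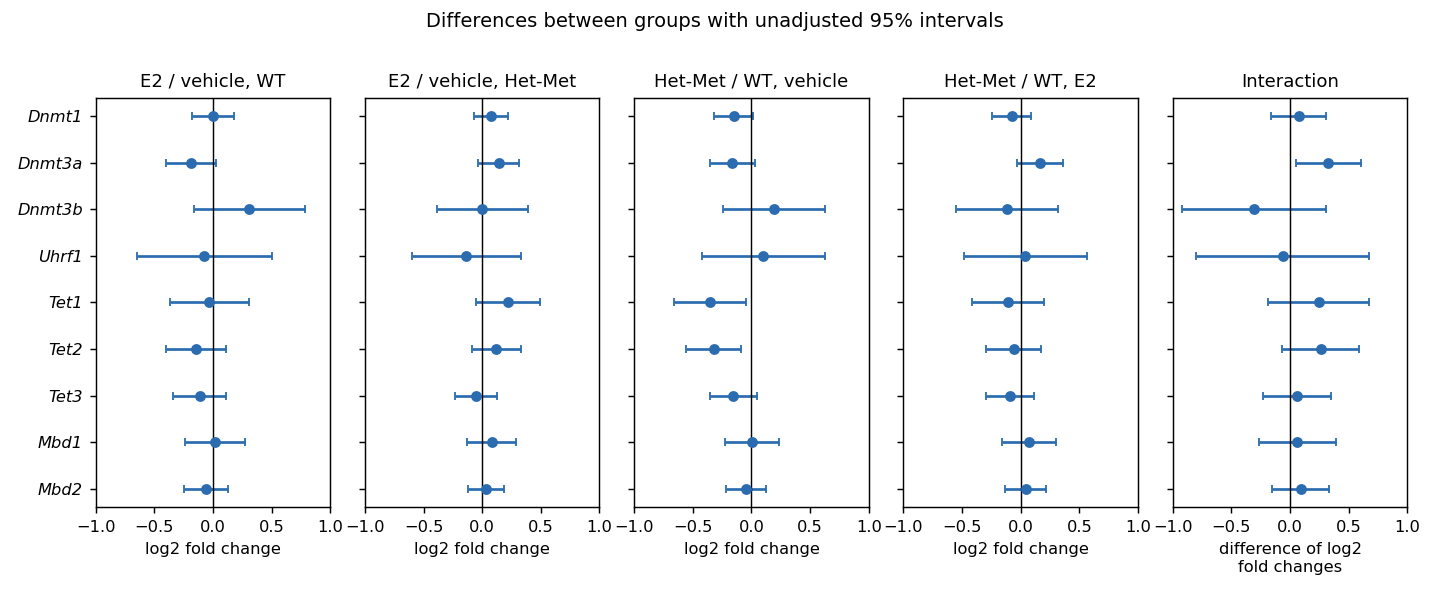
Log2 fold changes of the 9 genes (horizontal) in 5 comparisons, from limma on log2(CPM + 0.5) over all 10 libraries; points are estimates and bars are unadjusted 95% intervals. The bars of Tet1 and Tet2 leave 0 for genotype under vehicle and the bar of Dnmt3a leaves 0 for the interaction, and all other bars cross 0.

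Averaged over both treatments, the log2 fold change of genotype was -0.23 for Tet1 (adjusted p = 0.274), -0.19 for Tet2 (adjusted p = 0.238), -0.12 for Tet3 (adjusted p = 0.375) and -0.11 for Dnmt1 (adjusted p = 0.315), all by limma. At an unadjusted p under 0.05 with a lower level, 2 of the 9 genes passed here and 2 under vehicle alone, where 7.27% and 4.83% of all genes did. In an exact two-sided permutation test over the 100 arrangements of libraries within treatments, the p was 0.11 for Tet1, 0.11 for Tet2, 0.16 for Tet3 and 0.05 for Dnmt1, out of 9 genes tested. For the other 5 genes the same exact p was 0.61 to 1.

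Gene length moved with genotype across the whole table, and less strongly with E2 in OVX Het-Met. It has to be read beside the TET and Dnmt3a values. The exons of Tet1, Tet2, Tet3 and Dnmt3a span 15.5, 16.9, 16.7 and 16.6 kb, and Tet1 alone is longer than 96.9% of the genes tested. The 405 tested genes with at least 15 kb of exons, a limit chosen after the values were seen, had a median log2 fold change of -0.15 for genotype under vehicle and 89.1% of them were lower in OVX Het-Met. The 14572 shorter genes had a median of 0.02. Under E2 the long genes had a median of -0.09, with 77.8% lower. With E2 in OVX Het-Met the long genes had a median of 0.055 (22.7% lower) and the shorter genes 0.003 (49.0% lower). For the interaction the long genes had a median of 0.051 (36.3% lower) and the shorter genes 0.004 (48.9% lower). Under vehicle Tet3 and Dnmt3a, at -0.15 and -0.16, were at the level of genes of their length, and Tet1 and Tet2 were below it, with 95% intervals that include that level. With the trend on length removed from each library, the log2 fold changes of genotype under vehicle were -0.23 for Tet1, -0.19 for Tet2, -0.03 for Tet3, -0.03 for Dnmt3a and -0.12 for Dnmt1. No member then had an unadjusted p under 0.05 for genotype under vehicle (limma, 0.0889 for Tet1 and 0.0671 for Tet2). The Dnmt3a interaction changed from 0.33 to 0.29. Its genotype difference under E2 rose in size from 0.16 to 0.25 (limma, unadjusted p = 0.00821, adjusted p = 0.362).

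The slope of the log2 level on each doubling of length was 0.0134 to 0.0435 in OVX WT vehicle, 0.0330 to 0.0373 in OVX WT E2, -0.0761 to -0.00599 in OVX Het-Met vehicle and -0.0189 to 0.00485 in OVX Het-Met E2. OVX Het-Met vehicle replicate 1 held the steepest slope, and it also had the lowest Tet1, Tet2 and Tet3 values of all 10 libraries. Without it, the log2 fold changes of genotype under vehicle were -0.24 for Tet1, -0.25 for Tet2, -0.07 for Tet3 and -0.15 for Dnmt1. Without OVX WT vehicle replicate 1, which held the highest Tet2 value, Tet2 was at -0.18, and without OVX WT vehicle replicate 3, which held the highest Tet1 value, Tet1 was at -0.25. 

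**Figure D4:**
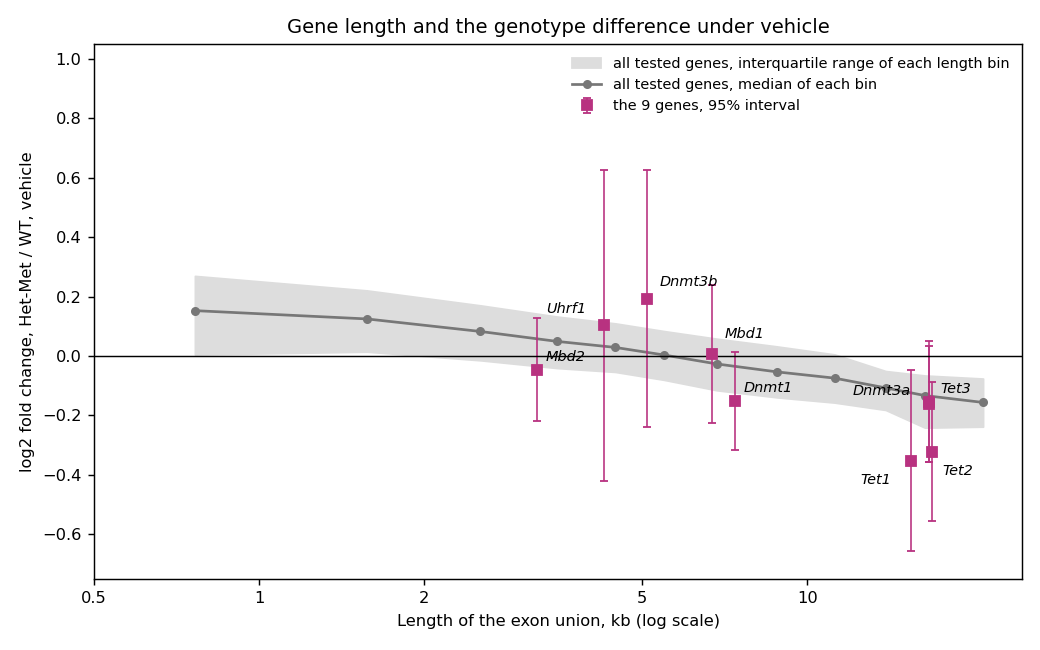
Log2 fold change of genotype under vehicle (vertical) against the length of the exon union in kb (horizontal, log scale); the grey line and band are the median and interquartile range of all tested genes in 12 length bins, and squares are the 9 genes with 95% intervals. The grey line descends from 0.15 in genes under 1 kb to -0.16 in genes of 18 kb or more; Tet3 and Dnmt3a lie near it, and Tet1 and Tet2 lie below it with intervals that reach it.

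The group means of the readers Mbd1 and Mbd2 differed little, while single libraries of Mbd1 varied more. Mbd1 was at 36.5 and 27.8 CPM in OVX WT vehicle, 32.5 and 32.0 in OVX WT E2, 30.8, 30.4 and 35.0 in OVX Het-Met vehicle, and 35.5, 33.3 and 32.9 in OVX Het-Met E2. The OVX WT vehicle libraries thus enclosed all the others. Mbd2 was at 39.8 and 44.1 CPM in OVX WT vehicle, 42.0 and 38.5 in OVX WT E2, 41.7, 39.3 and 40.7 in OVX Het-Met vehicle, and 42.5, 42.0 and 40.0 in OVX Het-Met E2. The highest library of Mbd2 was 1.15 times its lowest, and that of Mbd1 was 1.31 times its lowest. For Mbd2 the 95% intervals of the 4 simple comparisons lay within -0.25 and 0.22 on the log2 scale. For Mbd1 they lay within -0.24 and 0.30. Changes beyond these bounds are outside the intervals.

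As a second description of the separation, the libraries of the compared groups did not overlap for 3 of the 9 genes with E2 in OVX WT (Uhrf1 and Tet3 lower, Dnmt3b higher), where 31.8% of all genes did not overlap. The count was 0 with E2 in OVX Het-Met (10.3% of all genes), 2 for genotype under vehicle (Tet2 and Dnmt1, both lower, beside 24.7%) and 1 for genotype under E2 (Mbd1, higher, beside 35.8%). These shares are near or below those of all genes.

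The median log2 fold change of the 9 genes was -0.15 for genotype under vehicle, -0.06 for genotype under E2, -0.06 for E2 in OVX WT and 0.08 for E2 in OVX Het-Met. The medians of all genes tested were 0.02, 0.03, -0.00 and 0.00. None of these medians was adjusted for gene length. For genotype under vehicle 6 of the 9 genes had a log2 fold change below 0, 4 of them with long exons, beside 44.7% of all genes tested.

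Among tested genes averaging 5 CPM or more, those whose log2 level followed each gene most closely over the 10 libraries were found by Pearson correlation. For Tet1 they were Hivep1 (r = 0.975), a zinc finger protein, and Mllt4 (0.966), an adherens junction protein. For Tet2 they were Kmt2a (0.974), a histone H3 lysine methyltransferase, and Zcchc2 (0.970). For Tet3 they were Pde10a (0.964), a cyclic nucleotide phosphodiesterase, and Gpr4 (0.934), a proton-sensing receptor. For Dnmt1 they were Alms1 (0.930), a centrosomal protein, and Unc80 (0.908), a subunit of the NALCN channel. For Dnmt3a they were Yeats2 (0.943) and Ralgps1 (0.928), and for Dnmt3b Zfp777 (0.913) and Adgrg1 (0.891). For Uhrf1 they were Rsph9 (0.884) and Nckap1l (0.864), for Mbd1 Obsl1 (0.946) and Adamts3 (0.939), and for Mbd2 Hpgds (0.924) and Ppp2r5a (0.845). These are the highest of many correlations over 10 libraries that share the length slopes and group means given above, and they describe the libraries only.

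Around the 9 genes, 48 others of DNA methylation and demethylation were read as 5 lists, namely partners of the writers, further readers, factors that support the TET enzymes, base excision repair and the supply of methyl groups. Of these, 45 were tested and none was called in any comparison. At an unadjusted p under 0.05, 2 of the 45 passed for genotype under vehicle (1 higher, 1 lower, beside 10.7% of all genes) and 6 for genotype under E2 (2 higher, 4 lower, beside 11.7%). With E2, 1 passed in OVX WT (beside 4.04%) and 2 in OVX Het-Met (beside 5.45%), and 1 passed for the interaction (beside 5.42%). Over both treatments 7 passed for genotype (3 higher, 4 lower, beside 16.6%), and over both genotypes 1 passed for E2 (beside 3.22%).

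Mbd5, a protein with a methyl-CpG binding domain (exons of 19.6 kb), was at 82.4 and 89.9 CPM in OVX WT vehicle, 91.3 and 88.9 in OVX WT E2, 67.6, 78.7 and 79.3 in OVX Het-Met vehicle, and 78.3, 74.1 and 78.4 in OVX Het-Met E2. All 6 OVX Het-Met libraries lay below all 4 OVX WT libraries. The share of all genes apart in this way over both treatments was not counted. Within treatments the genotypes did not overlap for 24.7% of all genes under vehicle and 35.8% under E2. Over both treatments the genotype difference of Mbd5 was -0.21 on the log2 scale (SE 0.0574, limma, adjusted p = 0.127), and -0.09 with the length trend removed. Zbtb38, a zinc finger protein that binds methylated DNA (exons of 11.7 kb), was at 33.1 and 42.5 CPM in OVX WT vehicle, 42.3 and 45.1 in OVX WT E2, 28.9, 38.5 and 33.0 in OVX Het-Met vehicle, and 34.5, 33.7 and 27.9 in OVX Het-Met E2. Its genotypes overlapped under vehicle and stood apart under E2, where the log2 fold change was -0.45 (SE 0.130, limma, adjusted p = 0.334). Over both treatments it was -0.31 (adjusted p = 0.146 by limma), and -0.24 with the length trend removed. By DESeq2 on the recovered reads, the adjusted p over both treatments was 0.0337 for Mbd5 and 0.0420 for Zbtb38, with folds that did not pass the limit of 1.3. In that DESeq2 comparison 295 of 15081 genes had an adjusted p under 0.05, against 5 by limma.

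Mbd3 (exons of 1.99 kb) is a subunit of the NuRD complex that binds methylated DNA weakly in mammals. Of the 7 genes listed as further readers, it alone had a higher mean in OVX Het-Met under vehicle. Its level was 85.1 and 78.3 CPM in OVX WT vehicle and 93.6, 91.8 and 90.2 in OVX Het-Met vehicle, with a log2 fold change of 0.17 (SE 0.0685, limma, adjusted p = 0.426). With the length trend removed it was 0.07, and tested genes with 1 to 2 kb of exons had a median of 0.12 for the same comparison. Without OVX WT vehicle replicate 3 it was 0.11. Mbd4, a glycosylase that removes thymine from mismatches at CG pairs, was at 12.2 and 13.2 CPM in OVX WT vehicle and 9.38 and 9.84 in OVX WT E2. The OVX Het-Met means of Mbd4 were 11.6 ± 0.555 CPM with vehicle and 11.8 ± 1.38 with E2 (SD, n = 3 each), and the libraries overlapped. The log2 fold change of E2 in OVX WT was -0.38 (SE 0.133, limma, adjusted p = 0.913) and the interaction was 0.40 (SE 0.172, limma, adjusted p = 0.845). With the choroid plexus sum as a covariate these values were -0.57 and 0.72 (limma, unadjusted p = 0.00486 and 0.0145, both adjusted p = 1.00). Like Dnmt3a, Mbd4 had a lower mean with E2 in OVX WT and a slightly higher one in OVX Het-Met, and the interaction of neither gene passed the adjusted test.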

How the data were processed

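RNA from vHpc of OVX mice was sequenced as 75-bp reads, and the authors aligned them to mm10 with TopHat2. The deposited table holds CPM per gene in each of 10 libraries, and the authors' counting settings for strand and shared reads are not given in the sources used here. The CPM were whole multiples of 1 read in 100% of values (tolerance 0.01 reads), which gave the reads per gene. Depth was 19820184 to 23267410 reads on genes. Genes averaging 0.5 CPM or more were tested with limma 3.58.1 (R 4.3.3) on log2(CPM + 0.5), a scale that understates the change of low genes, with means of the 4 groups (from the labels) and a trend on level. P-values measure the spread between pools. A count test, edgeR 4.0.16 or DESeq2 1.42.0 on the recovered reads, was an alternative and called 0 of the 9 genes in each comparison. Lengths were exon unions of GENCODE vM21, found for 99.3% of tested genes. The named genes are the 9, up to 3 genes of the other lists per comparison with the smallest unadjusted p under 0.05, and the 2 genes most like each of the 9. The genes and lists were chosen with earlier results of these data known, among them a display the study drew from these libraries.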

Additional observations from a re-analysis of the deposited data

How the results depend on the processing

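No member was called under any of 23 alternatives (pseudocount, filter, scaling, test, samples, length trend, replicate block, choroid plexus covariate, each library left out); their smallest adjusted p was 0.122. The covariate was chosen after seeing the data. The 62 fold changes gave 1398 values, of which 1354 kept their direction and 44 over 19 fold changes turned. Members at an unadjusted p under 0.05 numbered 0 to 3 for genotype under vehicle, 0 to 1 under E2 and 0 to 4 over both treatments, 0 to 1 with E2 in OVX WT, 0 to 2 in OVX Het-Met and 0 over both genotypes, and 0 to 2 for the interaction. Genes called over the whole table ranged from 0 to 16 for E2 in OVX WT (2 as reported), 0 to 6 for E2 in OVX Het-Met (0 as reported), 1 to 38 for genotype under vehicle (1 as reported), 0 to 52 under E2 (4 as reported), 0 to 71 for the interaction (11 as reported), 1 to 88 for genotype over both treatments (4 as reported) and 0 to 5 for E2 over both genotypes (1 as reported).

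No pairing of the samples by the replicate numbers of the labels was seen. With group means subtracted, same-numbered libraries of different groups correlated at -0.172 to 0.0826 and differently numbered ones at -0.151 to 0.172. In a group of 2 libraries these deviations mirror each other, which limits this check. With the replicate block the Dnmt3a interaction was 0.27, Dnmt1 with E2 in OVX WT was -0.0044 and the Uhrf1 interaction 0.0747, the last 2 with the sign turned. With the length trend removed, Dnmt1 with E2 in OVX WT was -0.000172, and for genotype under E2 Tet2 was 0.0306 and Mbd2 -0.0133. With the choroid plexus covariate, Dnmt1 with E2 in OVX WT was -0.0103, Dnmt3b with E2 in OVX Het-Met 0.0588, Uhrf1 for genotype under vehicle -0.0176 and for the interaction 0.163, Tet3 with E2 in OVX Het-Met 0.0057, and Mbd1 with E2 in OVX Het-Met -0.0061, for genotype under E2 -0.0243 and for the interaction -0.139. Dnmt3b with E2 in OVX Het-Met was 3.72e-05 with a pseudocount of 1 and 0.000329 by DESeq2. Mbd1 for genotype under vehicle was -0.0150 by median-of-ratios scaling, -0.0081 by TMM, -0.0208 by quantile normalization, -0.0177 by edgeR and -0.0250 by DESeq2. The cause of these turns was not tested.

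With each library left out in turn, the log2 fold change with E2 in OVX WT ran from -0.0445 to 0.0475 for Dnmt1, -0.134 to 0.0739 for Tet1, -0.285 to 0.0017 for Tet2, -0.176 to 0.211 for Mbd1 and -0.130 to 0.0135 for Mbd2. With E2 in OVX Het-Met it ran from -0.110 to 0.0923 for Dnmt3b, -0.348 to 0.0319 for Uhrf1 and -0.139 to 0.0173 for Tet3. For genotype under vehicle it ran from -0.0641 to 0.316 for Uhrf1, -0.187 to 0.200 for Mbd1 and -0.118 to 0.0252 for Mbd2, and under E2 from -0.0885 to 0.125 for Uhrf1 and -0.0201 to 0.107 for Mbd2. The interaction ran from -0.276 to 0.105 for Uhrf1, -0.0247 to 0.131 for Tet3 and -0.130 to 0.257 for Mbd1. Where 1 library was left in a group, it was taken to vary like the others.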

Other observations

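For genotype under vehicle the 12 tested genes of base excision repair had a median log2 fold change of 0.10 and the 11 of methyl supply 0.06, beside 0.02 for all genes, and 0 of either list passed at an unadjusted p under 0.05 by limma, beside 10.7% of all genes tested. The 8 tested partners of the writers had a median of -0.01 and the 7 TET support factors -0.02. These list medians were not adjusted for gene length. All tested genes with exons of 1 to 2 kb and of 2 to 3 kb had medians of 0.12 and 0.08 for the same comparison. Gadd45a, a stress-induced protein linked to DNA repair, was at 2.33 and 2.28 CPM in OVX WT E2 and 3.52, 2.90 and 3.60 in OVX Het-Met E2, a log2 difference of 0.45 (limma, adjusted p = 0.368). Its exons span 1.76 kb, and tested genes with 1 to 2 kb of exons had a median of 0.11 for genotype under E2. Gadd45b, an activity-induced relative, was at 9.01, 7.42 and 9.41 CPM in OVX Het-Met vehicle and 6.51, 7.19 and 6.07 with E2, a log2 difference of -0.36 (limma, adjusted p = 0.828). Cxxc4, a CG-binding protein known to act on Tet2, was at 35.6, 34.9 and 29.4 CPM in OVX Het-Met vehicle and 37.3, 38.1 and 44.2 with E2, a log2 difference of 0.26 (limma, adjusted p = 0.778). Tdg, the glycosylase that removes oxidized forms of methylcytosine, was listed at a mean of 0.0459 CPM and was not tested. Processed pseudogenes of Tdg are annotated in the mouse genome, and how shared reads were counted is not given in the sources used here.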
